A study of Homo sapiens with 5 samples.

Results

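The MYC, MAX and MNT network is a group of transcription factors that dimerize with each other through a shared helix-loop-helix and leucine zipper fold. Its 10 genes examined here were MYC, MAX, MNT, MXD1, MXI1, MXD3, MXD4, MGA, MLX and MLXIP, out of 20163 annotated protein-coding genes. A peak was assigned to one of them when it overlapped the gene or the 50 kb on either side of it on hg19, and 52 of 29781 peaks met this rule. The genes were chosen by earlier results on these same peaks, among them the width of the HIF1α peak at MNT with iAs. What is given of that peak is therefore a description and not a result. The counts of these genes set against all genes are likewise descriptions.

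The peaks came from ChIP-seq of BEAS-2B cells, an immortalized line of human bronchial epithelial cells, and the lists hold no expression value that could check the cell type. All cells were serum-starved overnight. The control cells then received no arsenic, and the treated cells received 1 μM inorganic arsenic (iAs) for 6 h. Chromatin of each condition was precipitated with an antibody against Nrf2 (Santa Cruz in the labels) or against HIF1α (Abcam in the labels), whereas the methods of the study name antibodies from another supplier, Active Motif. This gave 4 ChIP libraries, 1 for each antibody and condition, and 1 input library without a peak list used here. With 1 library per group no difference was tested, and a peak that 1 condition has and the other lacks has no replicate check. For Nrf2 there were 3204 control and 7743 iAs peaks, and for HIF1α 6008 and 12826. They give positions without heights, and the read depth is unknown, so width stood in for size.

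MYC pairs with MAX, and the dimer binds the E-box, a DNA element with the letters CACGTG, at genes for growth and metabolism. MNT, MXD1, MXI1, MXD3, MXD4 and MGA pair with MAX as well, occupy the same element and mostly repress. MLX is a partner of MLXIP, also called MondoA, which responds to glucose-derived metabolites, and MLX also pairs with MNT and MXD1. HIF1α, the oxygen-regulated subunit of the hypoxia-inducible factor, is of the same broad helix-loop-helix class and recognizes ACGTG or GCGTG. Nrf2 is a leucine zipper factor of the oxidative stress response that binds the antioxidant response element, with the core TGACNNNGC. A related element of the AP-1 family reads TGACTCA.

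The E-box letters stood in a HIF1α peak near the TSS of 6 network genes in iAs-treated cells, that is MNT, MXD1, MXD3, MXD4, MLX and MLXIP. They were in 6 of 12 such peaks, against 11.7% of 9308 HIF1α peaks near any TSS. Within 100 bp of the peak centre they were in 2 of 12, against 5.46%. The 6 include the MNT peak whose width was known when the genes were chosen, so this count is a description. Every CACGTG contains ACGTG, which HIF1α recognizes, so the 2 elements cannot be told apart at these sites. ACGTG was in 8 of the 12 peaks (34.8% of the 9308) and GCGTG in 9 (63.1%). TGACNNNGC was in 2 (19.2%) and TGACTCA in 0 (2.89%). The E-box sites are shown because the element recognized by the network's own proteins lay in peaks at their genes. Each is printed from the plus strand of hg19 with 8 flanking bases on either side, and the capitals mark the E-box letters.
MNT, chr17:2304534-2304555, 190 bp upstream of the TSS: cgcgcgcaCACGTGgcccgggc
MNT, chr17:2303926-2303947, 418 bp downstream: ccgctcacCACGTGctctctgt
MNT, chr17:2303015-2303036, 1329 bp downstream: ccccggtgCACGTGgtcggggg
MXD1, chr2:70141409-70141430, 822 bp upstream: gcagcagcCACGTGgcgcctgc
MXD3, chr5:176739269-176739290, 380 bp upstream: agccgctgCACGTGggtgccgc
MXD4, chr4:2264061-2264082, 235 bp upstream: agcaacagCACGTGgtggcccg
MLX, chr17:40719060-40719081, 48 bp upstream: gcgcgggtCACGTGggcacgcc
MLXIP, chr12:122516281-122516302, 337 bp upstream: gcacccacCACGTGgagccggc
The 3 MNT sites lay in 1 peak, and the site 1329 bp downstream also lay in a HIF1α peak of control cells.

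With iAs, each of the 10 network genes had a HIF1α peak centred within 1 kb of its canonical TSS, while in control cells 2 of 10 did, MYC and MNT. Of all protein-coding genes, 42.1% had such a peak with iAs (Wilson 95% confidence interval 41.5 to 42.8) and 16.5% in control cells (16.0 to 17.0). These intervals cover the counting of genes only. Thus 8 of 10 network genes had a HIF1α peak at the TSS with iAs and none in control cells, against 27.5% of all genes, and 0 of 10 had the reverse, against 1.84%. As the genes were chosen with earlier results on these peaks known, the difference from all genes is a description. Because the iAs list is longer, the lists were also cut to the same number of widest peaks. At 6008 peaks in each HIF1α list, 7 of 10 network genes had a peak at the TSS with iAs, all but MAX, MLX and MLXIP, against 25.5% of all genes.

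Nrf2 was at the TSS of fewer of these genes than HIF1α in both conditions. A peak centred within 1 kb of the TSS was found at 1 of 10 genes in control cells, MNT, against 2.23% of all genes, and at 2 of 10 with iAs, MYC and MNT, against 4.91%. The MYC peak spanned 198 bp, rank 6926 of 7743 by width. When the Nrf2 lists were cut to the same number of widest peaks, MNT alone was left with iAs, against 2.11% of all genes. The choice of MNT for its HIF1α peak bears on these small counts. Within 50 kb, Nrf2 peaks were found at 2 of 10 genes in control cells (MYC and MNT, against 20.0% of all genes) and at 5 of 10 with iAs (MYC, MNT, MXD3, MLX and MLXIP, against 35.0%). HIF1α peaks were found within 50 kb of 4 of 10 genes in control cells (MYC, MNT, MXD3 and MLX, against 45.5%) and of 10 of 10 with iAs, against 68.6%. The control shares of the network genes were therefore at or slightly under those of all genes at this distance.

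**Figure D1:**
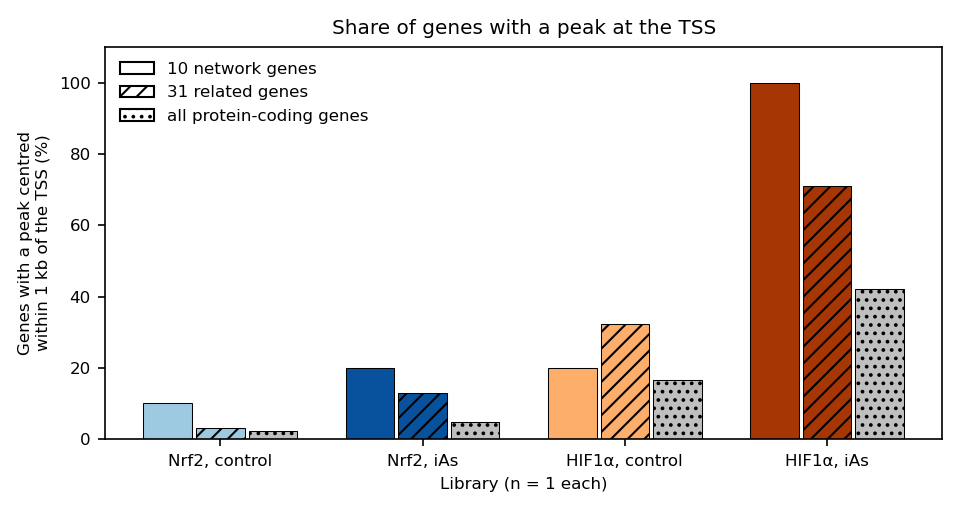
Share of genes, in percent, with a peak centred within 1 kb of the canonical TSS in each of the 4 libraries (n = 1 each), for the 10 network genes (plain bars), 31 related genes (hatched bars) and all protein-coding genes (dotted bars). From left to right, 1, 2, 2 and 10 of the 10 network genes have such a peak, and 2.23%, 4.91%, 16.5% and 42.1% of all genes.

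The loci held 2 control and 11 iAs peaks of Nrf2, and 8 control and 31 iAs peaks of HIF1α. MNT had 14 peaks over the 4 libraries and MYC had 11, and 3.09% and 6.63% of all genes had as many or more. MXD3 and MLX had 5 each, MXI1 and MGA 4 each, MLXIP 3, and MAX, MXD1 and MXD4 2 each, where the median over all genes was 3. Apart from MNT and MYC, the network genes were thus ordinary in the number of peaks around them. Not every peak belonged to its network gene by position. The MNT count includes peaks nearest to the TSS of its neighbours SGSM2 and TSR1. It also includes 3 HIF1α control peaks that lay under 1 iAs peak. Of the 31 HIF1α peaks with iAs, 21 were nearer to the TSS of a network gene than to that of any other protein-coding gene, and 8 of the remaining 10 lay within 1 kb of the TSS of a neighbour. The peaks nearest the 50 kb limit were a HIF1α control peak 47.6 kb from the MNT gene body, just inside, and a HIF1α peak with iAs 51.2 kb beyond the end of MYC, just outside.

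**Figure D2:**
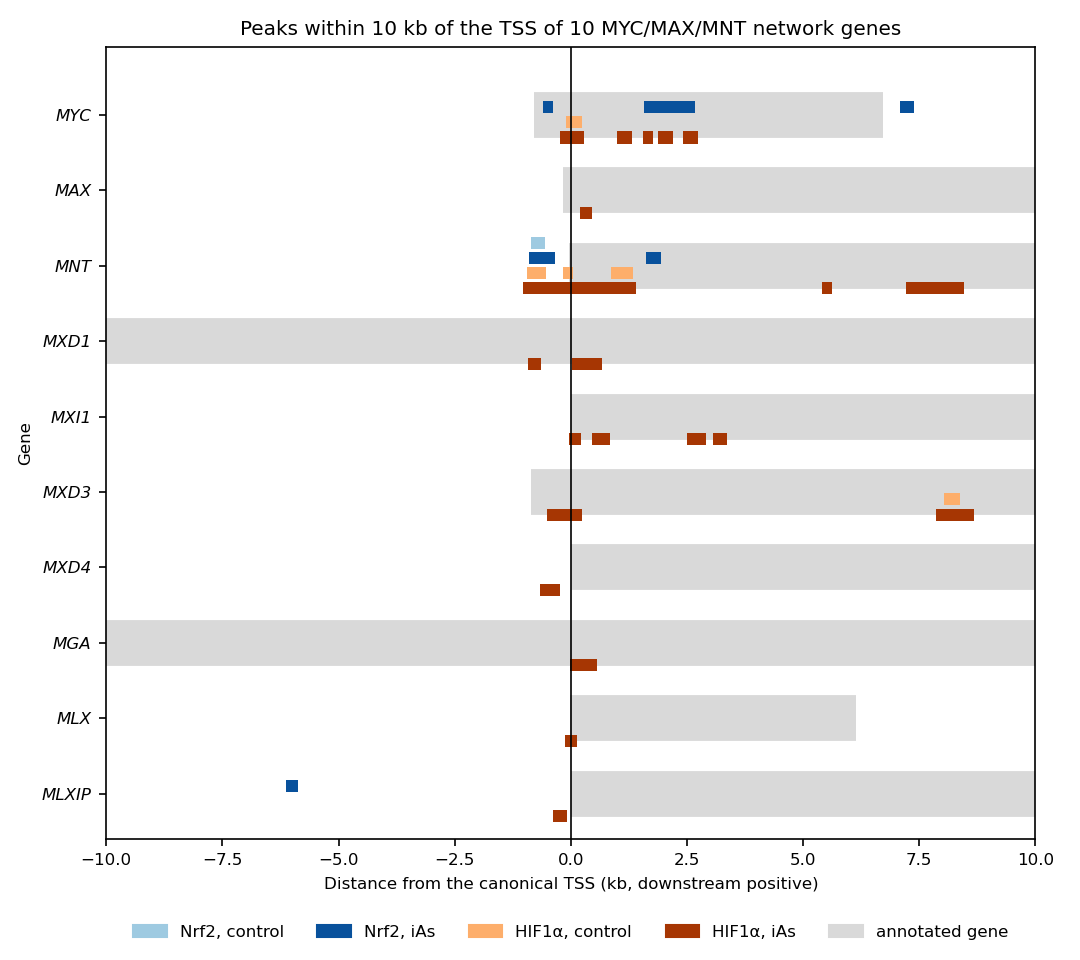
Peaks within 10 kb of the canonical TSS of the 10 network genes, drawn to scale along the distance from the TSS in kb with the direction of transcription to the right. Light and dark blue mark Nrf2 peaks in control and iAs-treated cells, light and dark orange mark HIF1α peaks, and grey marks the annotated gene. Each row has a dark orange HIF1α peak at or beside the TSS, whereas MYC and MNT are the genes with a blue or light orange peak within 1 kb.

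MYC, an activator of the network, had peaks of both factors in both conditions (chr8:128747680-128755197, plus strand, TSS at 128748477). HIF1α lay over the TSS, in a control peak of 350 bp centred 74 bp downstream (chr8:128748377-128748726) and an iAs peak of 513 bp centred 20 bp downstream (chr8:128748241-128748753), both in the 5'-UTR of exon 1. The iAs peak was 1.47 times as wide, close to the median ratio of 1.43 over 3175 iAs peaks of HIF1α that overlapped control peaks. With iAs, 4 more HIF1α peaks of 225 to 334 bp followed between 1.15 and 2.58 kb, the nearer pair centred in intron 1 and the farther pair in coding exon 2. Their centres lay 145 to 533 bp from other annotated MYC starts. None of these 4 had a HIF1α peak in control cells beneath it. One Nrf2 iAs peak of 1093 bp (chr8:128750047-128751139), centred 2.12 kb downstream in coding exon 2, overlapped 3 of them. Its width put it at rank 414 of 7743 Nrf2 iAs peaks, and its centre lay 602 bp from another annotated MYC start. The annotated lncRNA gene CASC11 also lies over this stretch, so the peaks cannot be given to MYC alone.

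The widest Nrf2 peaks of the network were not at a promoter but 24 kb downstream of the MYC TSS. In control cells this peak spanned 1005 bp (chr8:128772506-128773510, centred 24.5 kb from the TSS), rank 59 of 3204 and within the widest 1.84% of its library. With iAs it spanned 1770 bp (chr8:128771834-128773603, centred 24.2 kb from the TSS), rank 69 of 7743 and within the widest 0.891%. The ratio of 1.76 was near the median of 1.63 over 2939 such Nrf2 pairs, of which 91.7% were wider with iAs. HIF1α had no peak there in either condition. The control interval held the letters TGACNNNGC once and the iAs interval 2 times, and neither held TGACTCA. These sites lay 493 bp from the centre of the control peak, and 739 and 783 bp from that of the iAs peak. With iAs Nrf2 also had a peak of 198 bp centred 493 bp upstream of the MYC TSS and one of 295 bp centred 7.23 kb downstream, neither present in control cells. None of the letters searched occurred in the HIF1α peaks over the MYC TSS.

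MAX is the partner that MYC and its antagonists share (chr14:65472892-65569413, minus strand). It had no peak of either factor in control cells. With iAs, HIF1α had a peak of 245 bp in intron 1, centred 324 bp from the TSS (chr14:65568789-65569033). This was the narrowest of the 10 HIF1α peaks nearest a network TSS. Another HIF1α peak of 308 bp, 115 kb from the MAX TSS, lay 123 bp inside the start of FNTB, a farnesyltransferase subunit gene. The nearest Nrf2 peak was 490 kb from the TSS in both conditions, and the nearest HIF1α control peak was 599 kb away.

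MNT, a repressor that competes with MYC for MAX, held the widest HIF1α peak of all (chr17:2287367-2304398, minus strand, TSS at 2304354). With iAs this peak spanned 2434 bp (chr17:2302956-2305389), rank 1 of 12826, and was centred 182 bp downstream in the 5'-UTR of exon 1. Because the gene was chosen with this peak known, its rank is a description. In control cells the same stretch held 3 separate HIF1α peaks, of 423 bp centred 740 bp upstream, 213 bp over the TSS and 488 bp centred 1.10 kb downstream in intron 1. Together they covered 1124 bp, so the iAs interval was 2.17 times as wide as their sum. A single wide interval and several narrow ones differ here in how the peaks were joined as well as in the bases covered. The iAs interval held CACGTG 3 times, TGACNNNGC 2 times and GCGTG 15 times, on either strand. It held ACGTG 8 times, of which 6 were the 2 strands of the 3 E-boxes.

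Nrf2 lay on the upstream side of the same MNT promoter. In control cells its peak spanned 311 bp (chr17:2304906-2305216, centred 707 bp upstream), and with iAs 574 bp (chr17:2304687-2305260, centred 619 bp upstream), a ratio of 1.85. The Nrf2 and HIF1α intervals overlapped here in control cells and with iAs alike. Neither Nrf2 interval held TGACTCA or TGACNNNGC. With iAs a further Nrf2 peak of 321 bp lay 1.79 kb downstream in intron 1, beyond the end of the wide HIF1α peak. HIF1α also had iAs peaks inside MNT without a control peak, one of 213 bp in intron 1 at 5.52 kb and one of 1238 bp in intron 4 at 7.84 kb. The latter was centred 459 bp from another annotated MNT start. Its rank was 174 of 12826, and it held TGACNNNGC 4 times and GCGTG 7 times.

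**Figure D3:**
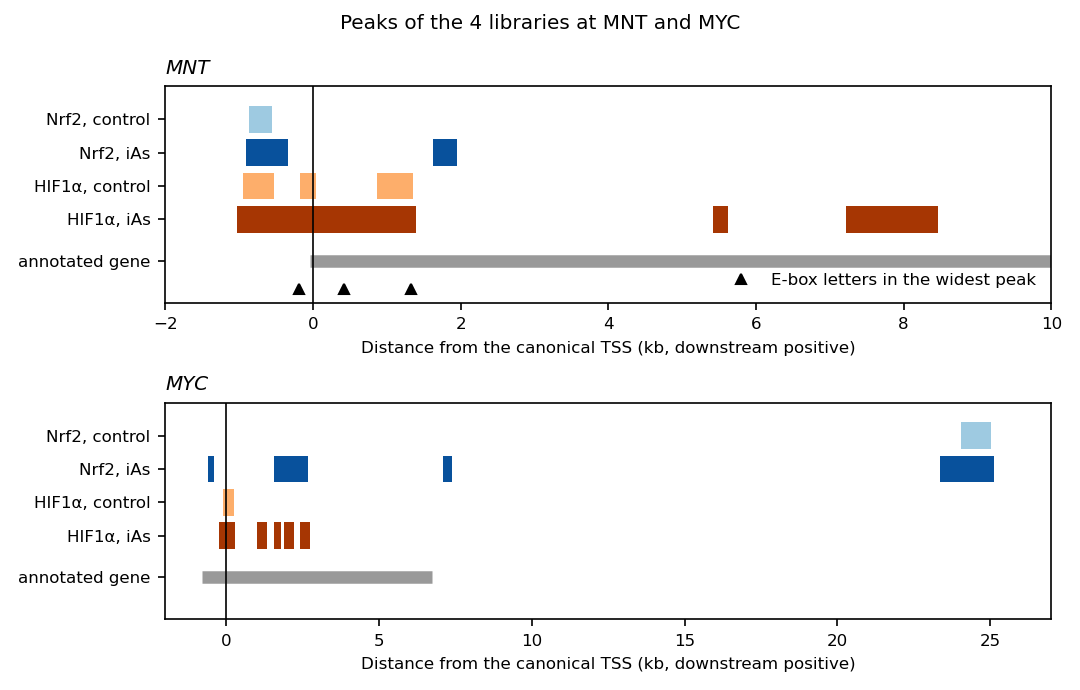
Peaks of the 4 libraries at MNT (top) and MYC (bottom), drawn to scale along the distance from the canonical TSS in kb with the direction of transcription to the right; the grey bar is the annotated gene and the triangles mark the 3 CACGTG letters in the MNT peak of 2434 bp. At MNT 3 HIF1α control peaks lie under 1 iAs peak, and at MYC the widest Nrf2 peaks of both conditions lie 24 kb from the TSS.

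The far side of the MNT locus belonged to other genes. The HIF1α peak at the start of TSR1, a ribosome maturation gene 64 kb from the MNT TSS, spanned 223 bp in the control library and 1482 bp in the iAs library (chr17:2239211-2240692, rank 71 of 12826). This ratio of 6.65 was the highest among the loci. In SGSM2 a HIF1α control peak of 261 bp and an Nrf2 iAs peak of 199 bp lay 82 bp apart, about 41 kb from the MNT TSS. This HIF1α peak had no counterpart with iAs, where the nearest HIF1α peak was 21575 bp away. The Nrf2 peak held CACGTG and TGACTCA, and the latter stood within a TGACNNNGC site.

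MXD1, a repressor that accompanies differentiation in many cell types, had peaks of HIF1α with iAs only (chr2:70124820-70170077, plus strand). One of 265 bp lay 782 bp upstream of the canonical TSS and held the E-box printed above. Another of 654 bp (chr2:70142256-70142909), centred 341 bp downstream in intron 1, held no E-box and the letters GCGTG 2 times. MXI1, a repressor of the same family, had 4 HIF1α peaks with iAs (chr10:111967363-112047123, plus strand). They spanned 247 bp over the TSS, 386 bp at 655 bp, and 415 and 299 bp at 2.71 and 3.21 kb in intron 1. The third was centred 86 bp from another annotated MXI1 start. No MXI1 peak held CACGTG, and 1 of the 4 held ACGTG.

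MXD3 (chr5:176728462-176739758, minus strand) had a HIF1α iAs peak of 763 bp over the TSS (chr5:176738649-176739411), rank 1153 of 12826 and with 1 E-box. No control peak overlapped it. At its 3' side, where the gene overlaps RAB24, a vesicle traffic gene, HIF1α had a peak of 350 bp in the control and 825 bp in the iAs library, a ratio of 2.36. This peak lay 23 to 87 bp from the start of RAB24. At the start of LMAN2, 40 kb upstream, an Nrf2 peak of 241 bp and a HIF1α peak of 402 bp overlapped with iAs. MXD4 (chr4:2249159-2263836, minus strand) had a HIF1α iAs peak of 438 bp centred 442 bp upstream, with 1 E-box, and one of 304 bp 20.1 kb downstream among HAUS3 and POLN. Neither gene had a peak of Nrf2 or HIF1α at the TSS in control cells.

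MGA, the largest of the MAX partners and a subunit of a non-canonical Polycomb complex, had HIF1α peaks with iAs only (chr15:41913332-42065279, plus strand). The peak at the canonical TSS spanned 599 bp (chr15:41952576-41953174) and held GCGTG 8 times and no E-box. Another of 213 bp lay 38.9 kb upstream, 5 bp from a second annotated MGA start. It held an E-box, shown because this start also had a peak.
MGA, chr15:41913670-41913691, 38923 bp upstream of the canonical TSS: gcgaccagCACGTGacccgaac
The other HIF1α peaks of the locus lay 60 bp from the start of MAPKBP1 (216 bp) and in the space toward TYRO3 (188 bp). The nearest peak of the other 3 libraries was 270 kb from the MGA TSS in each.

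MLX (chr17:40719090-40725257, plus strand) and MLXIP (chr12:122516628-122631894, plus strand) form the nutrient-sensing arm. Both had a HIF1α peak at the TSS with iAs, of 260 bp centred 7 bp from the MLX TSS and of 311 bp centred 238 bp upstream of MLXIP, and none in control cells. Each held 1 E-box. They were among the narrower peaks at network genes, and neither was kept when the iAs list was cut to 6008 peaks. MLX had 2 more HIF1α iAs peaks, at the start of NAGLU (191 bp) and inside HSD17B1 (346 bp), 30.9 and 12.3 kb upstream. A HIF1α control peak of 223 bp in ATP6V0A1, a proton pump gene 47.0 kb upstream, had no HIF1α counterpart with iAs but lay inside an Nrf2 iAs peak of 569 bp. MLXIP had Nrf2 peaks with iAs only, of 277 bp 6.00 kb upstream and of 540 bp in intron 1, 64.8 kb from the TSS. The intronic peak (chr12:122581148-122581687) and the SGSM2 peak were the Nrf2 peaks of the loci that held TGACTCA. Their sites are shown with those letters in capitals, and at SGSM2 the bases that follow complete TGACNNNGC. Also shown is the E-box that the ATP6V0A1 peaks of HIF1α and Nrf2 shared.
MLXIP intron 1, chr12:122581510-122581532, plus strand: ggaagagcTGACTCAacgctctg
SGSM2 in the MNT locus, chr17:2262677-2262699, minus strand: ggcattacTGACTCAgctctgtg
ATP6V0A1 in the MLX locus, chr17:40672096-40672117, plus strand: tcaccctgCACGTGacctgtca

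Across the 10 loci, most peaks of iAs-treated cells had no control peak of the same factor. This held for 9 of 11 Nrf2 peaks (81.8%, against 62.0% of the whole list) and for 27 of 31 HIF1α peaks (87.1%, against 75.2%). Conversely, 0 of 2 Nrf2 control peaks (against 5.37%) and 2 of 8 HIF1α control peaks (against 46.3%) lacked an iAs counterpart. Of the HIF1α control peaks with one, 3 lay under the wide MNT peak that was known when the genes were chosen. With a reciprocal overlap of 50%, 7 of 8 lacked one, and no share of the list is given at that setting. All 6 iAs peaks with a control peak beneath them, 2 of Nrf2 and 4 of HIF1α, were wider than the control intervals, as were 91.7% and 75.9% of such peaks genome-wide. With iAs, 5 of 31 HIF1α peaks (16.1%) overlapped an Nrf2 peak, against 8.95% of the list, namely 3 in MYC, 1 at MNT and 1 at LMAN2. In control cells 1 of 8 did (12.5%, against 14.8%), at MNT.

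Width did not set the network peaks apart as a group. The median was 324 bp for the 31 HIF1α iAs peaks and 340 bp for the whole list, and 13 of 31 were above the latter. For Nrf2 with iAs it was 321 bp against 333 bp, with 5 of 11 above, and for HIF1α in control cells 306 bp against 276 bp, with 4 of 8 above. The 2 Nrf2 control peaks spanned 311 and 1005 bp, where the median of the list was 309 bp. The HIF1α iAs peak nearest each network TSS spanned 245 to 2434 bp with a median of 476 bp, and over 8497 genes with such a peak the median was 390 bp. Their centres lay 7 to 442 bp from the TSS, with a median of 210 bp against 172 bp. The intervals of 6 genes covered the TSS itself, those of MYC, MNT, MXI1, MXD3, MGA and MLX, where 24.4% of all genes had a HIF1α iAs interval over the TSS.

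**Figure D4:**
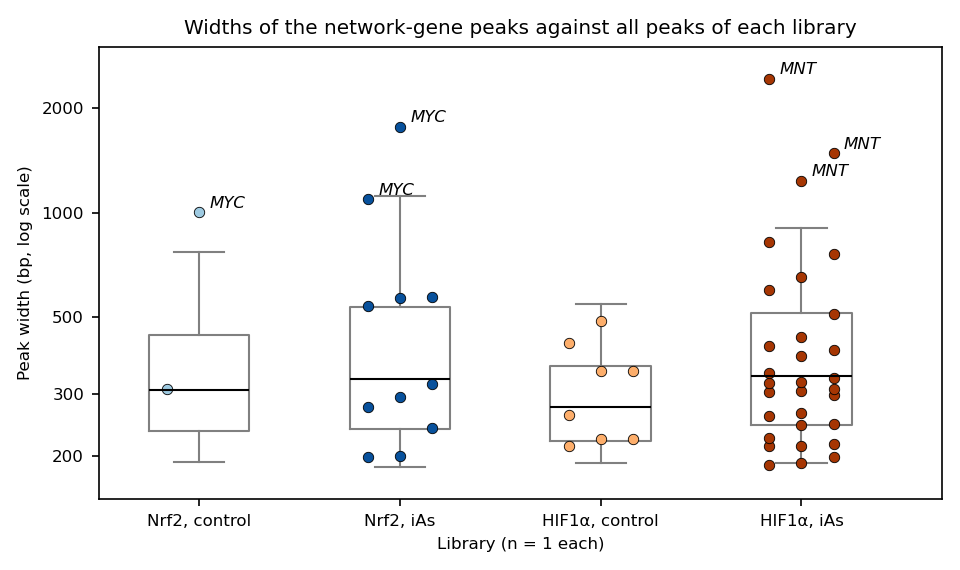
Width in bp on a log scale of each network peak (points, labelled with the locus above 1000 bp) beside all peaks of the same library (n = 1 each; line, median; box, 25 to 75%; whiskers, 5 to 95%). Most points lie within the whiskers, and the widest are the MNT peak of 2434 bp for HIF1α and the MYC peak of 1770 bp for Nrf2; the MNT-locus point of 1482 bp is the peak at TSR1.

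Sequence letters of the peaks were searched on both strands over the whole interval. CACGTG was in 9 of 31 HIF1α iAs peaks, against 11.5% of the list, 6 of them the peaks near a TSS described above. Within 100 bp of the peak centre it was in 4 of 31 (5.79% of the list). ACGTG, which every CACGTG contains, was in 17 of 31 (33.9% of the list) and GCGTG in 18 of 31 (61.1%). In HIF1α control peaks CACGTG was in 3 of 8 (10.2%), and in Nrf2 iAs peaks in 3 of 11 (7.54%). TGACTCA was in 2 of 11 Nrf2 iAs peaks (51.5% of the list) and 0 of 2 control peaks (58.4%), a lower share than in the lists. Over whole intervals TGACNNNGC was in 4 of 11 (44.2%) and 1 of 2 (51.3%), near the shares of the lists. Within 100 bp of the centre it was in 1 of 11 (31.6%) and 0 of 2 (42.4%), below those shares. The intervals differ in width, and these counts describe few peaks. Among RefSeq promoters of 300 bases on GRCh38.p14, 9 of the 10 network genes were matched (all but MYC), and 3 of 9, MNT, MXD4 and MLX, held CACGTG, against 7.26% of 35116 promoters. The first share counts genes and the second counts single promoters, so the 2 differ in unit. The HIF1α peaks of the network had a median GC content close to that of their lists, 68.0% against 69.8% with iAs (58.0 to 78.0 over the 31 peaks) and 62.7% against 60.2% in control cells. For the Nrf2 peaks of the network with iAs the median GC content was 55.9%, against 47.2% for the list (45.4 to 64.0 over the 11 peaks). In control cells the 2 Nrf2 peaks differed. The peak at MNT had 64.6% and the peak downstream of MYC 43.7%, against a list median of 46.3%.

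Around the network, 31 related genes were listed by role, from paralogs and cofactors to target genes, also with earlier results of these data known. A HIF1α peak within 1 kb of the TSS was found at 22 of 31 with iAs (42.1% of all genes) and 10 of 31 in control cells (16.5%), and an Nrf2 peak at 4 (4.91%) and 1 (2.23%). Within 50 kb the counts were 28 of 31 (68.6% of all genes) and 15 of 31 (45.5%) for HIF1α, and 13 of 31 (35.0%) and 5 of 31 (20.0%) for Nrf2, so the control counts were near the shares of all genes. By role, and to be read against the same 42.1% of all genes, HIF1α with iAs was at the TSS of 1 of 3 paralogs (MYCN, MYCL and MLXIPL), 7 of 10 cofactors, 5 of 6 genes of MYC turnover, 4 of 5 other E-box binders, 1 of 2 MondoA targets and 4 of 5 MYC targets. At NCL, the gene for nucleolin and a target of MYC, both factors overlapped at the TSS with iAs, with an Nrf2 peak of 191 bp and a HIF1α peak of 895 bp. The widest HIF1α peaks in these loci were 611 bp at the TSS of USF1, another E-box binder, in control cells and 1199 bp at that of HDAC2, a histone deacetylase, with iAs. The widest Nrf2 peaks, of 1393 bp (control) and 1645 bp (iAs), were assigned to RUVBL2, a subunit of MYC-associated remodelling complexes, but lay about 30 kb away and nearest to FTL, the ferritin light chain gene.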

How the data were processed

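The deposited data were peak intervals of 4 ChIP libraries on hg19. Per the labels' processing notes the authors used BWA and MACS2 2.1.0, and their methods name MACS or SICER and down-sampling of tags to the smallest library of a group. The deposited intervals carry neither heights nor scores, and the depth is unknown. The authors' 21088 merged regions were not used.

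Starts were changed from 0-based to 1-based. Of the peaks, 0 lay outside their chromosome and 0 overlapped a peak of the same library. Genes came from GENCODE release 44 on GRCh37. The TSS was that of the transcript tagged canonical, and of the longest basic transcript for the 282 genes without the tag. Overlap needed at least 1 bp. Distances run from the peak centre to the TSS, and a peak at the TSS had its centre within 1 kb. Motifs were counted in whole peaks and within 100 bp of the centre.

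The network genes and the related lists were chosen with earlier results of these data known. All 10 network genes are named with their peaks. Of the 31 related genes, those with overlapping Nrf2 and HIF1α peaks within 1 kb of the TSS are named, as is the gene with the widest peak per library. No test was run, since each group has 1 library. Alternatives covered distance, overlap, peak number, TSS and motif window. The code for overlaps, distances and letters was tested on simulated data. The work used Python 3.11.15, NumPy 2.4.6, SciPy 1.17.1 and matplotlib 3.10.9.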

Additional observations from a re-analysis of the deposited data

How the results depend on the processing

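Of 96 alternative values, 66 stayed within 1.5 times the count given above and 30 did not. At 10 kb and at 2 kb from the gene, Nrf2 peaks were at 1 gene in control cells and 3 with iAs. The loci held 1 Nrf2 control peak at 10 kb and 4 at 100 kb, and at 10 kb 7 Nrf2 iAs and 5 HIF1α control peaks. In the wider 50% of each list they held 5 Nrf2 iAs, 4 HIF1α control and 13 HIF1α iAs peaks. In the full list, 4 of the 8 HIF1α control peaks of the loci were nearest a network TSS. With equal numbers of the widest peaks, 3 Nrf2 and 8 HIF1α iAs peaks lacked a control peak. A reciprocal overlap of 50% left 7 HIF1α control peaks without an iAs counterpart and 1 HIF1α iAs peak shared with Nrf2, and a gap of 1 kb gave 2 shared control peaks. Within 500 bp of the TSS, Nrf2 was at 0 genes in control cells and 1 with iAs. Chosen after seeing the data were 3 alternatives for peaks at the TSS. Nrf2 with iAs was at 1 gene in the wider 50% (2.53% of all genes) and at 1, MNT, with equal numbers (2.11%). When the interval had to cover the TSS, Nrf2 was at 0 genes in control cells (1.19% of all genes) and 0 with iAs (2.34%). HIF1α with iAs was then at 6 (24.4%). Within 100 bp of the peak centre, the antioxidant response core was in 0 Nrf2 control peaks and 1 Nrf2 iAs peak. The letters TGACTCA were in 1 Nrf2 iAs peak. Among HIF1α iAs peaks, the E-box was in 4, and the HIF cores with A and with G in front were in 9 and 11. These settings keep fewer or more peaks or bases by construction. Beyond the 3 alternatives chosen later, no share of all genes or peaks is given here at a changed setting. The counts without a share show only how the network's own numbers moved. The count of 10 of 10 HIF1α iAs genes held at 500 bp, at 3 kb and with the TSS of any transcript. It was 7 in the wider 50% (26.9% of all genes) and 7 with equal numbers (25.5%). No paired analysis was possible because each group has 1 library and the labels carry no replicate numbers. Without read depth or heights, a peak that is absent from a list cannot be told apart from one below the caller's threshold.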
